A study of Mus musculus with 64 samples.

Results

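The genes described here are 9 markers of monocyte-derived cells, Ccr2, Ly6c2, Plac8, Chil3, F13a1, Vcan, Fn1, S100a4 and S100a6, followed in cells sorted from mouse retina before and after an intravitreal injection of an adeno-associated virus (AAV). They were chosen by name, 9 of the 25239 genes in the batch-corrected count table, and each is given as CPM (the gene's count divided by the library's total count and scaled to the usual common total). All mice were Cx3cr1CreER:R26-tdTomato +/- animals on C57BL/6J of either sex, aged 3, 9 or 18 months, in which tamoxifen eye drops followed by a washout had turned on tdTomato in cells that express the fractalkine receptor gene Cx3cr1. Naive eyes were not injected. Treated eyes each received 1e10 genome copies, in 2 µL, of an AAV2 vector without a transgene, AAV.CMV.null.WPRE.io2. This vector carries a TLR9-inhibiting oligonucleotide sequence. The treated eyes were collected on day 12 or day 28 after the injection (IVT). From each single retina, 600 living cells with high tdTomato were sorted into 1 RNA-seq library, with no antibody against CD45, CD11b or Ly6C in the gate. Cx3cr1 is active in microglia and also in monocytes and some other blood leukocytes, so the sort does not by itself separate these cells; by the study's methods, the local drops and the washout serve to make the label more specific for microglia. No library from eyes injected with vehicle was analysed here, so the effect of the injection and the effect of the vector cannot be told apart.

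The comparisons used 62 libraries: 19 from naive eyes, 22 from day 12 and 21 from day 28, in 18 groups of age, sex and day with 2 to 4 libraries each, collected on 2 collection days (27 and 35 libraries). Total counts ranged from 1468478 to 9836173 per library, with a median of 4188992, so that a floor of 3 counts stood at 0.305 CPM in the deepest library and at 2.04 CPM in the shallowest. Sex-linked genes went against the labelled sex in 2 libraries of mice at day 28. These were the library labelled 18-month-old female D28 replicate 1, which the member rule leaves out, and the library labelled 9-month-old male D28 replicate 1, which the corrected table does not hold. The library 18-month-old male D28 replicate 4 carries different days in its labels and was kept at day 28. No pair of libraries in a group was identical or alike within sampling noise. By the study's methods the other eyes of these animals went to flow cytometry or staining, so no 2 libraries come from 1 animal.

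Monocytes are made in the bone marrow and circulate in blood as a classical subset, high in Ly6C and CCR2 in mice, and a non-classical subset that is high in CX3CR1. Chemokines such as CCL2, read by CCR2, draw classical monocytes into inflamed tissue, where they turn into macrophages. Microglia settle in the retina before birth and keep themselves there, and they normally express little of the genes followed here. Several of the 9 genes are not restricted to monocytes: activated T cells can carry Ly6C and S100 proteins, and macrophages at vessels and tissue borders can express F13a1. The genes fall into a receptor (Ccr2), a surface protein (Ly6c2), an intracellular protein of leukocytes (Plac8), calcium-binding proteins (S100a4, S100a6), matrix molecules (Fn1, Vcan), a transglutaminase (F13a1) and a chitinase-like lectin (Chil3).

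The copy of a gene that a short read can be assigned to matters first for Ly6c2, which has a near-identical neighbour, Ly6c1, a gene of endothelial cells. Ly6c2 lies at chr15:75108158-75111970 and Ly6c1 at chr15:75044018-75048830 (both on the minus strand of mm10). Their coding sequences are each 393 bases long, differ at 9 bases and are 97.7% identical. The stretch that tells them apart best is coding bases 1 to 75, across an exon junction, shown 5′ to 3′ with the 6 differing bases in capitals (Ly6c2 at chr15:75110623-75111667, Ly6c1 at chr15:75047465-75048511):
Ly6c2: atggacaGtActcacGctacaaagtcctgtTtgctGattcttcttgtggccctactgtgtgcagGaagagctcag
Ly6c1: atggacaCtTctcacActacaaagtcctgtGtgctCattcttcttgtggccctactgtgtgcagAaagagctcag
Coding bases 66 to 140 are the same in both genes, so a read of 75 bases from there fits either gene:
Ly6c2 and Ly6c1: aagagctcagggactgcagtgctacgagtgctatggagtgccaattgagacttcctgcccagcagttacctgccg
Of all 75-base stretches in the Ly6c2 transcripts, 20.7% also occur in Ly6c1. Ly6c1 itself held 24 counts over all 62 libraries against 4871 for Ly6c2, and all 19 naive libraries were at 0 for it. Chil3 shares 13.7% of its stretches with Chil4 and a pseudogene, and Chil4 held 2 counts in all. S100a4 shares 44.8% with an overlapping gene model, Gm42674. F13a1, Plac8, Vcan and S100a6 shared none with another gene, and 2% of the Fn1 stretches lie on the opposite strand of Apol7d. The strand setting of the authors' counting is not given in the sources used here, so reads of overlapping and antisense genes are uncertain.

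The 250 bases upstream of a start site were read for 8 of the 9 genes from RefSeq (GRCm38.p6). They are shown for Ly6c2, which rose at day 12, for F13a1, which fell, and for S100a6, which followed T cell markers most closely, with the core letters GAGGAA of PU.1, a transcription factor of myeloid cells, in capitals where a window holds them on either strand. Ly6c2, chr15:75111938-75112187, minus strand of mm10, with 2 matches:
Ly6c2: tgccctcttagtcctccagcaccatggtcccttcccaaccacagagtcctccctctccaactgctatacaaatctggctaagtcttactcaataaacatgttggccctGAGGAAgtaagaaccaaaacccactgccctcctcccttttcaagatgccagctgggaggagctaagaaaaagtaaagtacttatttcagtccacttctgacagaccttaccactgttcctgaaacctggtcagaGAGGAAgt
F13a1, chr13:37050245-37050494, minus strand, with 1 match:
F13a1: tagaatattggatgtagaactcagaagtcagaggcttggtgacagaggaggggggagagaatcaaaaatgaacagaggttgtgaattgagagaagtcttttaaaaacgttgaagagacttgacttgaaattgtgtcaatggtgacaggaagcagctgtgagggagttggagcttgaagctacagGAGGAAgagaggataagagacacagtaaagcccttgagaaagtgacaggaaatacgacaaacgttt
S100a6, chr3:90612644-90612893, plus strand, with none of the letters searched:
S100a6: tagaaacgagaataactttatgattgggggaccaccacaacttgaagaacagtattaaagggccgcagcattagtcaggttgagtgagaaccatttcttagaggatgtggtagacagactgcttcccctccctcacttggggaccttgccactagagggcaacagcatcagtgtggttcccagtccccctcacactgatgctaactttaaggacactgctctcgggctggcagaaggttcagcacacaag
GAGGAA stood in 23.3% of all 32851 windows of the same length, so a match is common, and a window of Plac8 held 2. The AP-1 letters TGANTCA stood in 6.75% of all windows, the same on both strands, and in none of these 8 genes. The GAS letters TTCNNNGAA stood in 7.02% of windows and matched in Chil3. The CRE letters TGACGTCA stood in 1.55% of windows and matched in none of the 8. The TATA letters TATAAA stood in 12.4% of windows and matched in S100a4. Both strands were searched, the letters do not contain each other, and the windows of Ccr2 and Vcan held none of them. These matches are a description of letters and not of binding.

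At day 12 the median levels per kilobase of exon over 22 libraries were 38.9 CPM per kb for S100a6, 30.4 for Ly6c2, 15.5 for Plac8 and 13 for S100a4. Fn1 followed with 3.87 CPM per kb, Ccr2 with 0.777 and F13a1 with 0. By the mean, Plac8 came first with 54.7 CPM per kb, ahead of Ly6c2 (52.2) and S100a6 (45.1), and 1 library at 857 CPM weighs on that mean. These 3 genes overlapped widely across libraries, so their order does not exceed the spread. In naive eyes the medians were 5.59 CPM per kb for S100a6, 5.02 for F13a1, 3.75 for Plac8 and 3.7 for S100a4, with Fn1 and Ly6c2 at 0. Ccr2, Vcan and Chil3 were measured from few reads, with 736 counts for Ccr2, 183 for Vcan and 25 for Chil3 over all 62 libraries. In the same libraries, 10 microglia markers summed to a median of 38866 CPM in naive eyes, 15233 CPM at day 12 and 24069 CPM at day 28. That is a sum of genes not scaled to exon length, so it is not on the scale of the values per kb.

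**Figure D1:**
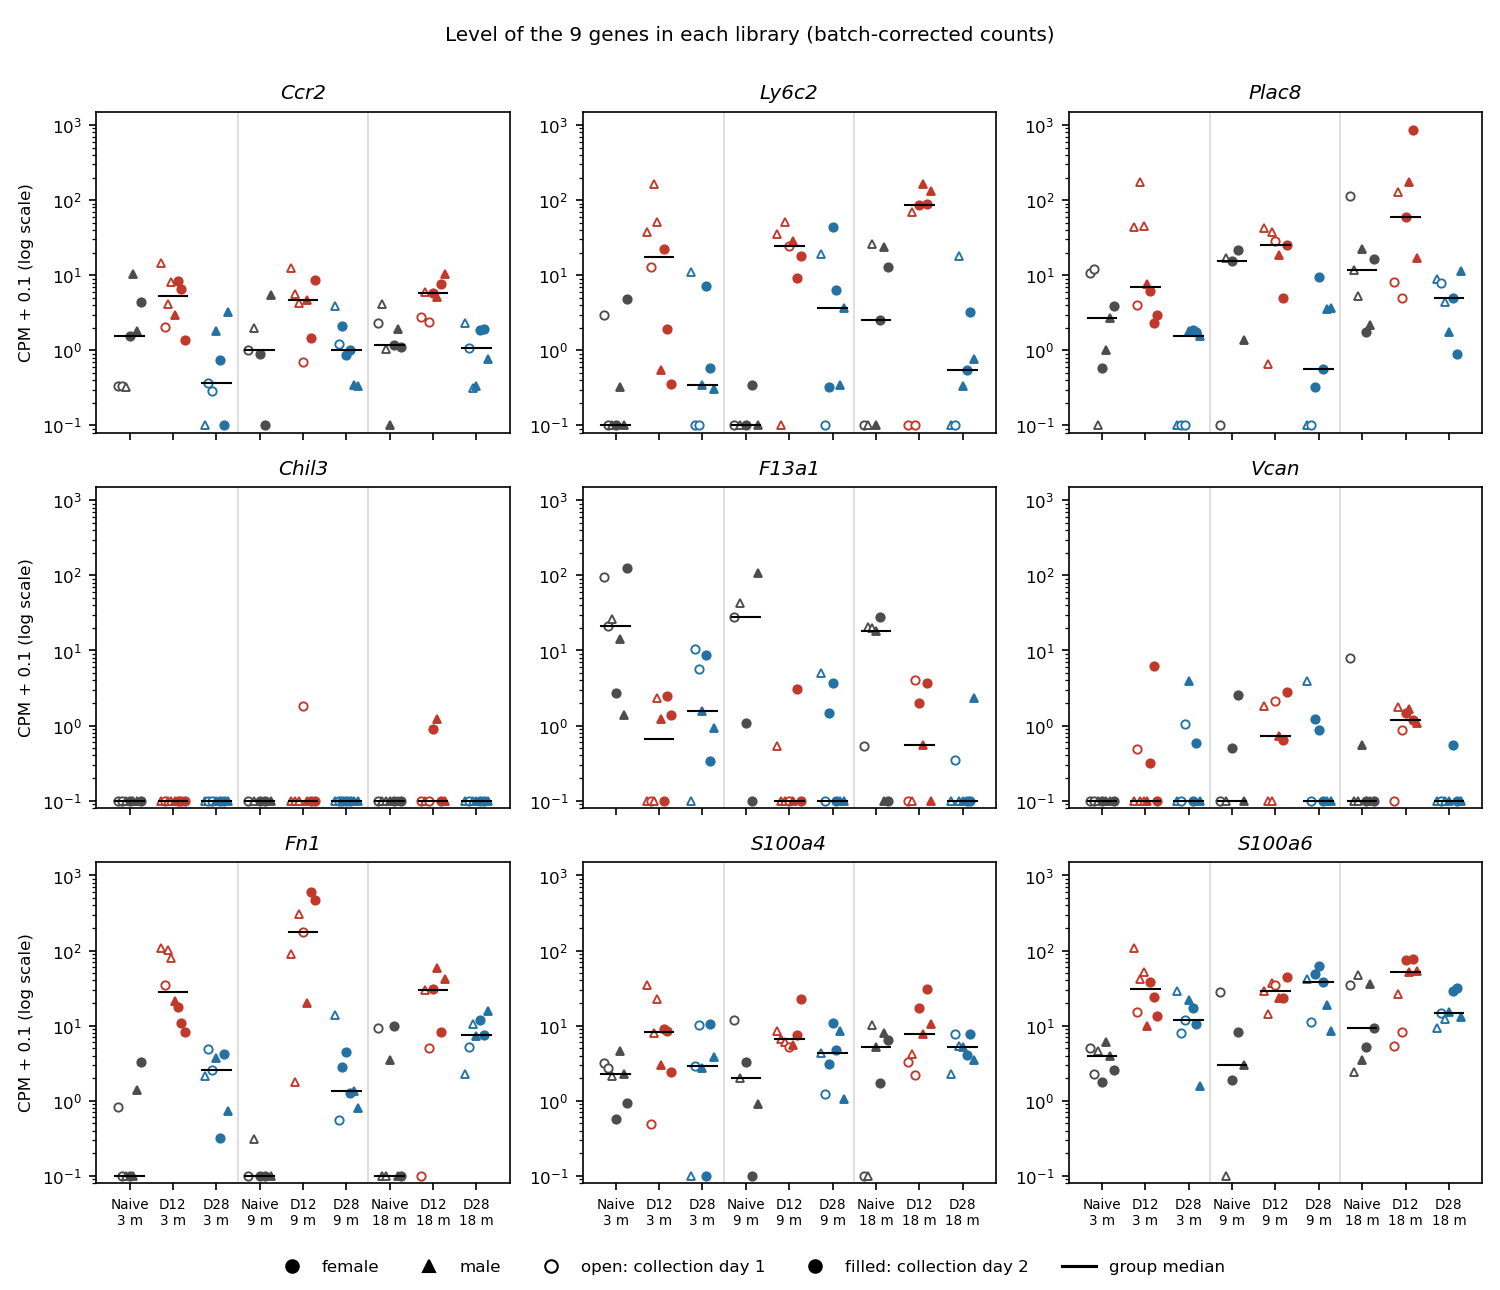
Level of each of the 9 genes in every library, as CPM plus 0.1 on a log axis, by age (3, 9 or 18 months) and day, with circles for females, triangles for males, open symbols for collection day 1, filled symbols for collection day 2 and a bar at the group median. Fn1 and S100a6 of 3-month-old eyes at day 12 lie above all naive eyes of that age, F13a1 lies lower at day 12 than in most naive eyes, and Chil3 is above 0 in only 3 libraries.

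At day 12 the 9 genes did not move together. Fn1, Ly6c2 and S100a6 rose at 3 and at 9 months, F13a1 fell at the same ages, and at 18 months Fn1 alone passed the test. The test asked, with edgeR (glmTreat on a quasi-likelihood fit of all 62 libraries), whether a change averaged over the sexes exceeded 2-fold, with a Benjamini-Hochberg adjusted p under 0.05 over the 13584 genes that passed the filter on low counts. Of the 9 genes, 8 passed that filter and Chil3 did not. At 3 months 4 of the 8 tested genes passed, where 3.35% of all genes did. At 9 months it was 4 of 8 against 4.14%, and at 18 months 1 of 8 against 3.26%. The 9 genes were chosen with earlier results of these data known, so these shares are a description and not a test of the set. The median log2 fold change of the 8 genes was 2.79, 2.15 and 1.74 at 3, 9 and 18 months, beside -0.00, 0.06 and 0.03 over all genes tested. The 3-month median lies between the values of Plac8 (2.74) and Vcan (2.85). That Vcan value has an SE of 8831.26, with 0 counts in naive eyes of that age, so this median is uncertain. The 9-month median also rests in part on Vcan (2.58, SE 1.56). Fn1 and S100a6 at 3 months and Fn1 at 9 months were higher in all day 12 libraries than in any naive library of that age, as were 3.14% and 2.47% of all genes. By DESeq2, F13a1 and Ly6c2 at 3 months (adjusted p = 0.182 and 0.0571), S100a6 at 9 months (0.178) and Fn1 at 18 months (0.347) did not pass. None of the 9 genes stood above all naive libraries at 18 months, where 0.766% of all genes did. None was lower in all day 12 libraries than in any naive library, against 3.56%, 2.20% and 1.60% of all genes at 3, 9 and 18 months. At 18 months, female D12 replicates 1 and 2 had the lowest summed T cell markers of day 12, 1.6 and 13.1 CPM. The other day 12 retinas of that age held 180 CPM or more. In these females Ly6c2 was at 0, Fn1 at 0 and 4.94 CPM and S100a6 at 5.34 and 8.17 CPM. All of these lay inside the naive range of that age. Their part in the fewer calls at 18 months was not tested.

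Fn1, which encodes the matrix glycoprotein fibronectin, had the largest rise. In naive eyes it was at 0 in 12 of 19 libraries, and the highest reached 9.79 CPM. At 3 months the 7 naive libraries ran from 0 (median) to 3.17 CPM, and the 8 day 12 libraries ranged from 8.02 to 109 CPM with a median of 28.2. The lowest day 12 retina thus held more Fn1 than the highest naive retina, and the fitted log2 fold change was 6.08 (SE 0.95, adjusted p = 4e-05, edgeR). The fitted value averages the sexes, and the 3 naive males of that age held only 3 counts. It was 7.79 without naive male replicate 3 and 7.10 without naive female replicate 4. At 9 months 4 of the 5 naive libraries were at 0 and the fifth was at 0.21 CPM, from a single read. The 7 libraries of day 12 at that age held 174, 596 and 465 CPM in females and 90.6, 1.66, 309 and 19.9 CPM in males. Pooled over libraries, 7469 counts stood against 1, a ratio of 5873 with an exact 95% interval of 1054 to 231999 that covers counting error only; the adjusted p was 2.63e-07 (edgeR). The lowest of these 7 values came from male replicate 2, which also held Ly6c2 at 0 and Plac8 at 0.553 CPM. At 18 months naive libraries ranged from 0 to 9.79 CPM and day 12 libraries from 0 to 58.2 CPM (median 29.4), so the groups overlapped, and the log2 fold change was 3.48 (SE 0.80, adjusted p = 0.0154, edgeR). The 18-month-old value lost its call without female D12 replicate 3 (adjusted p = 0.111) or without female naive replicate 3 (adjusted p = 0.0577, edgeR), and its log2 fold change was 5.88 without male naive replicate 3.

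Ly6c2, which encodes the Ly6C surface protein of classical monocytes, was absent or low in most naive retinas and high in most, but not all, retinas of day 12. The 3-month-old naive libraries ranged from 0 to 4.67 CPM with a median of 0, and the day 12 libraries of that age from 0.259 to 162 CPM with a median of 17.4. The 3-month groups overlapped at their ends, and the log2 fold change was 5.74 (SE 1.56, adjusted p = 0.0323, edgeR). The 3 naive males held 1 count together; pooled over both sexes, the 992 counts of day 12 and 41 of naive gave a ratio of 23.3 (95% interval 17.1 to 32.7, counting error only). The call was lost in 7 of the 15 fits that left out 1 library, with log2 fold changes of 5.22 to 6.74. These were the fits without male D12 replicate 2, female D12 replicate 2, female naive replicates 2 and 3 or any of the 3 naive males. At 9 months Ly6c2 gave a single read in 5 naive libraries, and 24.6, 9.13 and 18 CPM in females and 35.7, 0, 51.6 and 28.1 CPM in males at day 12. All but 1 of these retinas stood above every naive retina, with a pooled ratio of 638 (95% interval 114 to 25218, adjusted p = 0.0173, edgeR). In the uncorrected table, the 9-month-old naive female that gave this read, replicate 3, held 1.43 CPM. Without naive male replicate 1 or 2 the adjusted p was 0.123 or 0.154 (edgeR). At 18 months naive libraries reached 25.8 CPM and day 12 libraries 166 CPM, with a median of 85.4. Females 1 and 2 at day 12 were at 0 while the other 5 stood at 68.9 CPM or more, and the log2 fold change of 3.36 (SE 1.15) had an adjusted p of 0.183 (edgeR).

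S100a6 and S100a4 encode small calcium-binding proteins found in many motile cells, leukocytes of several kinds included. S100a6 in 3-month-old retinas ran from 1.68 to 6.05 CPM when naive and from 9.81 to 107 CPM at day 12, with medians of 3.88 and 31. The groups did not overlap, and the log2 fold change was 3.30 (SE 0.63, adjusted p = 0.00259, edgeR). At 9 months the 5 naive values were 28.4, 1.79 and 8.23 CPM in females and 0 and 2.85 CPM in males, and day 12 libraries ranged from 14.4 to 43.7 CPM. The log2 fold change was 2.81 (SE 0.73, adjusted p = 0.0435, edgeR), with naive female replicate 1 inside the day 12 range. This call was lost in 8 of the 12 fits without 1 library, at log2 fold changes of 2.37 to 2.83: those without male D12 replicates 1, 3 or 4, female D12 replicates 1 or 3, naive male replicate 1, or naive female replicates 2 or 3. Without naive male replicate 2 the log2 fold change was 5.61. At 18 months S100a6 ranged from 2.3 to 47 CPM in naive eyes and from 5.34 to 76.3 CPM at day 12 (log2 fold change 1.37, SE 0.58, adjusted p = 0.808, edgeR). S100a4 had medians of 2.16 CPM in naive eyes and 7.6 CPM at day 12 over all ages. Its log2 fold changes were 2.12 (SE 0.75) at 3 months, 1.72 (SE 0.86) at 9 months and 1.45 (SE 0.74) at 18 months, none past the test (adjusted p = 0.304, 0.593 and 0.87, edgeR).

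F13a1, which encodes the A subunit of the transglutaminase factor XIII, went the other way. Of the 19 naive libraries 16 held it, with a median of 20.1 and a highest value of 125 CPM, whereas 12 of 22 libraries at day 12 were at 0 and the highest reached 3.99 CPM. Naive retinas were uneven: the 3-month-old ones ranged from 1.29 to 125 CPM, and the 9-month-old ones held 27.5, 0.996 and 0 CPM in females and 42.6 and 108 CPM in males. At 3 months the day 12 libraries had a median of 0.557 CPM against 21 CPM in naive, a log2 fold change of -4.79 (SE 1.03, adjusted p = 0.00433, edgeR). DESeq2 gave -4.93 with an adjusted p of 0.182. At 9 months 5 of 7 libraries at day 12 were at 0, and the log2 fold change was -6.44 (SE 1.34, adjusted p = 0.0021, edgeR). Without naive female replicate 1 it was -4.43, with an adjusted p of 0.176 (edgeR), and without female D12 replicate 2 it was -8.79. At 18 months the naive libraries held 0.436, 27.8 and 0 CPM in females and 20.7, 20.1, 18.1 and 0 CPM in males, and the log2 fold change of -3.99 (SE 1.20) had an adjusted p of 0.091 (edgeR). It was -1.22 without female naive replicate 2 (adjusted p = 1) and -5.30 without male D12 replicate 2 (adjusted p = 0.119, edgeR).

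Plac8 encodes a small cysteine-rich protein of leukocytes. At day 12 it ran from 0.553 to 857 CPM with a median of 21.8 CPM, the next highest library being at 174 CPM, against 0 to 115 CPM and a median of 5.27 CPM in naive eyes. At 3 months the day 12 females held 3.92, 6.13, 2.21 and 2.85 CPM and the males 44.1, 173, 44.5 and 7.58 CPM. The 3 high males were all collected on collection day 1, together with 1 of the 4 females. At 18 months female D12 replicate 4 held 857 CPM, and the other 6 retinas of day 12 held from 4.94 to 174 CPM. The log2 fold changes against naive were 2.74 (SE 1.04), 1.12 (SE 0.95) and 3.13 (SE 0.88) at 3, 9 and 18 months, and none passed (adjusted p = 0.307, 1 and 0.0703, edgeR). The 18-month-old comparison passed in 5 of 14 fits that left out 1 library, with adjusted p of 0.0229 to 0.0492: those without female D12 replicates 1 or 2, male D12 replicate 3, female naive replicate 1 or male naive replicate 3. Its log2 fold change was 4.25 without that female naive replicate and 1.49 without female D12 replicate 4 (adjusted p = 0.959, edgeR).

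Ccr2, the receptor that guides classical monocytes, was low at every day. Its medians were 1.09 CPM in naive eyes, 5.25 CPM at day 12 and 0.762 CPM at day 28. It was above 3 counts in all 22 libraries of day 12, in 14 of 19 naive libraries and in 11 of 21 of day 28. At 3 months naive retinas ranged from 0.226 to 10.3 CPM and day 12 retinas from 1.29 to 14.3 CPM. The log2 fold changes at day 12 were 1.26 (SE 0.69), 1.60 (SE 0.83) and 2.03 (SE 0.74) at 3, 9 and 18 months, with adjusted p of 1, 0.654 and 0.35 (edgeR). The highest naive value, 10.3 CPM in 3-month-old male replicate 2, lay inside the day 12 range, and without it the 3-month log2 fold change was 2.33 (adjusted p = 0.289, edgeR). That value was 1.88 without female naive replicate 4, and the 9-month value was 0.80 without female D12 replicate 3 (adjusted p = 1, edgeR).

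The genes of the CCR2 ligands were read in the same sorted cells. Ccl2 had a median of 47.9 CPM in naive eyes and 476 CPM at day 12, and rose at 3 ages with log2 fold changes of 2.61 (SE 0.58, adjusted p = 0.0203), 4.64 (SE 0.77, adjusted p = 9.19e-05) and 4.50 (SE 0.64, adjusted p = 9.59e-06, edgeR). Ccl7 had medians of 2.99 and 126 CPM and rose at 9 months (5.71, SE 1.33) and at 18 months (5.95, SE 1.10). At 3 months its log2 fold change was 3.35 with an adjusted p of 0.124 (edgeR). Ccl12 had medians of 1307 and 3011 CPM, and its log2 fold changes of 1.40, 1.84 and 1.66 did not pass.

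Chil3 and Vcan could hardly be measured. Chil3, which encodes the chitinase-like protein Ym1, was at 0 in 59 of 62 libraries, and its 25 counts lay in 3 libraries of day 12. Against naive eyes at 0, the 17 counts at 9 months were at least 4.46-fold higher and the 8 counts at 18 months at least 2.63-fold higher than a floor of 3 counts over the naive group, and 1 library holds all 17. Vcan, which encodes the proteoglycan versican, was at 0 in 37 of 62 libraries. At 3 months its 32 counts at day 12 were at least 10.3-fold higher than that floor, but 30 of them came from female replicate 3. Vcan passed no day comparison.

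**Figure D2:**
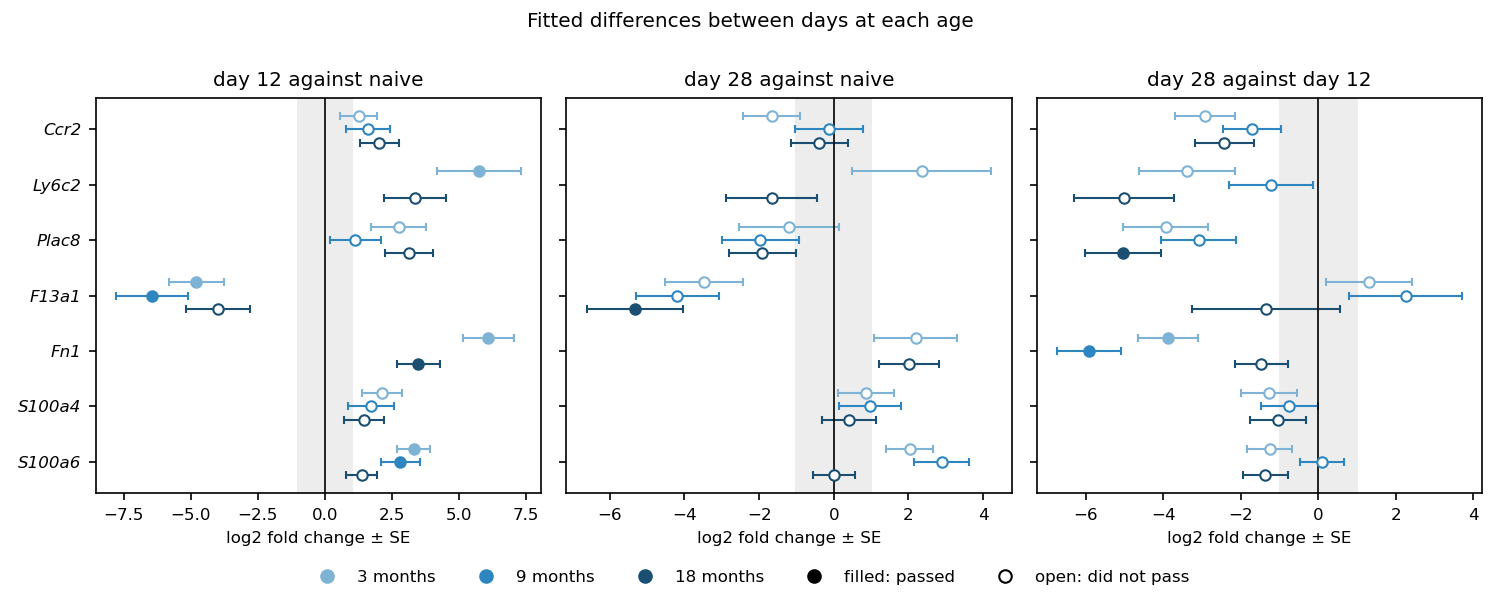
Fitted log2 fold changes with their SE for 7 genes between days, at 3, 9 and 18 months, with filled points for changes past the test and a grey band for changes under 2-fold. Values of Ly6c2 and Fn1 against 9-month-old naive eyes are not drawn because that group held 1 count of each. Fn1 lies far right at day 12 and F13a1 far left, and at day 28 against naive F13a1 at 18 months is the only filled point.

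At day 28 few of these genes differed from naive eyes by the test. Against naive eyes none of the 8 tested genes passed at 3 or 9 months, where 0.493% and 0.582% of all genes did. At an unadjusted p under 0.05 in the same test, 3 of the 8 passed at 3 months (4.61% of all genes did) and 4 at 9 months (5.61%). DESeq2 called 0 at 3 months (0.427% of all genes) and 1, Ly6c2, at 9 months (0.611%). At 18 months F13a1 alone passed (0.780% of all genes did). It was at 0 in 5 of 7 libraries and at 0.244 and 2.2 CPM in the others, a log2 fold change of -5.33 (SE 1.29, adjusted p = 0.0446, edgeR). DESeq2 gave an adjusted p of 0.318. The F13a1 call was lost in 10 of 14 fits without 1 library, at adjusted p of 0.0603 to 1. These were the fits without male D28 replicates 1, 2 or 3, any of the 3 females of day 28, male naive replicates 1, 2 or 3, or female naive replicate 2. Without the last of these the log2 fold change was -2.56, and without male D28 replicate 4 it was -7.62. At 9 months S100a6 at day 28 ranged from 8.49 to 62.7 CPM with a median of 37.7, beside a median of 28.7 CPM at day 12. Its log2 fold change against naive was 2.89 (SE 0.74, adjusted p = 0.121, edgeR), and without naive female replicate 1 it was 3.56 with an adjusted p of 0.0418. Without naive male replicate 2 it was 5.68 (adjusted p = 0.151, edgeR). Fn1 at day 28 was above 0 in all 21 libraries, from 0.218 to 15.4 CPM, while 12 of 19 naive libraries were at 0.

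Day 28 and day 12 were also compared with each other, and all 3 comparisons share the libraries of day 12 with those above. Fn1 fell at 3 months by 3.88 on the log2 scale (SE 0.78, adjusted p = 0.045) and at 9 months by 5.91 (SE 0.83, adjusted p = 6.88e-05, edgeR), where 0.103% and 0.339% of all genes passed. At 9 months Fn1 ranged from 1.66 to 596 CPM at day 12 and from 0.447 to 13.8 CPM at day 28. The 3-month-old Fn1 call was lost in 13 of 15 fits without 1 library (adjusted p = 0.055 to 0.408); only the fits without male D12 replicate 4 or female D12 replicate 4 kept it. At 18 months Plac8 fell by 5.04 (SE 0.99, adjusted p = 0.0347, edgeR), where 0.191% of all genes passed, from a median of 59.6 CPM at day 12 to 4.92 CPM at day 28. This call was lost in 10 of 14 fits without 1 library, those without any female of day 28, male D28 replicates 1, 2 or 3, male D12 replicates 1 or 2 or female D12 replicates 3 or 4. Without female D12 replicate 4 the log2 fold change was -3.4 with an adjusted p of 0.29. With the library labelled 18-month-old female D28 replicate 1 put back, the changes were -3.88 for Fn1 at 3 months (adjusted p = 0.113) and -3.82 for Plac8 (adjusted p = 0.492, edgeR), so neither passed. By DESeq2 these 2 changes had adjusted p of 0.805 and 0.115. Ccr2 had log2 fold changes of -2.92, -1.72 and -2.43 and passed at no age.

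Age was compared within each day by edgeR's quasi-likelihood test with an adjusted p under 0.1. Among naive eyes no gene of the 9 passed at 9 against 3 months, where 0% of all genes did, or at 18 against 3 months, where 0.110% did. At an unadjusted p under 0.05 it was 0 of the 8 (4.97% of all genes) and 4 of the 8 (7.44%). DESeq2 called 1, Ly6c2, in the first comparison (0.155% of all genes) and 1, S100a6, in the second (0.453%). The naive age difference with the smallest p was in S100a6, with medians of 3.88 CPM at 3 months and 9.12 CPM at 18 months and a log2 fold change of 2.35 (SE 0.63, adjusted p = 0.202). At day 12 Fn1 was higher at 9 than at 3 months (log2 fold change 2.36, SE 0.63, adjusted p = 0.056; 1.65% of all genes passed). Plac8 at day 12 was higher at 18 than at 3 months (3.46, SE 0.85, adjusted p = 0.0372; 1.97% of all genes passed). By DESeq2 the Fn1 difference had an adjusted p of 0.161. In edgeR it was lost in 6 of 15 fits without 1 library: without male D12 replicates 1 or 3 or female D12 replicates 2 or 3 of 9 months, or without male or female D12 replicate 4 of 3 months. The Plac8 difference was 1.82 without 18-month-old female D12 replicate 4 (adjusted p = 0.38), and was also lost without 18-month-old male D12 replicate 2 or 3-month-old female D12 replicate 3. At day 28 none of the 9 passed at 9 or 18 against 3 months, beside 0% and 0.0442% of all genes. At an unadjusted p under 0.05 it was 0 of the 8 (3.53% of all genes) and 4 of the 8 (4.65%), and DESeq2 called none of the 8 (0.0221% and 0.110% of all genes).

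The sexes were compared by the difference between the male and female change from naive to day 12. None of the 8 tested genes passed at an adjusted p under 0.1 (edgeR), and over all genes 0% passed at 3 months, 0.00736% at 9 months and 0% at 18 months. At an unadjusted p under 0.05 it was 2, 2 and 1 of the 8, beside 5.59%, 6.75% and 8.40% of all genes. DESeq2 called 0, 1 (Ly6c2) and 0, beside 0.0221%, 0.147% and 0.383% of all genes. In Plac8 at 3 months the male change exceeded the female one by 6.79 on the log2 scale (SE 2.07, adjusted p = 0.872, edgeR), and by 2.65 in the uncorrected counts without collection day. Its naive medians were 7.18 CPM in 4 females and 0.897 CPM in 3 males, and its day 12 medians 3.38 CPM in 4 females and 44.3 CPM in 4 males. The collection days are unevenly split there, with 1 female and 3 males of day 12 collected on collection day 1 and 3 females and 1 male on collection day 2, so sex and collection day cannot be fully told apart. At 18 months Ly6c2 at day 12 had medians of 42.7 CPM in 4 females, 2 of them at 0 and both of collection day 1, and 133 CPM in 3 males. The difference between the male and female change was 0.12 on the log2 scale (SE 2.20, adjusted p = 1, edgeR).

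**Figure D3:**
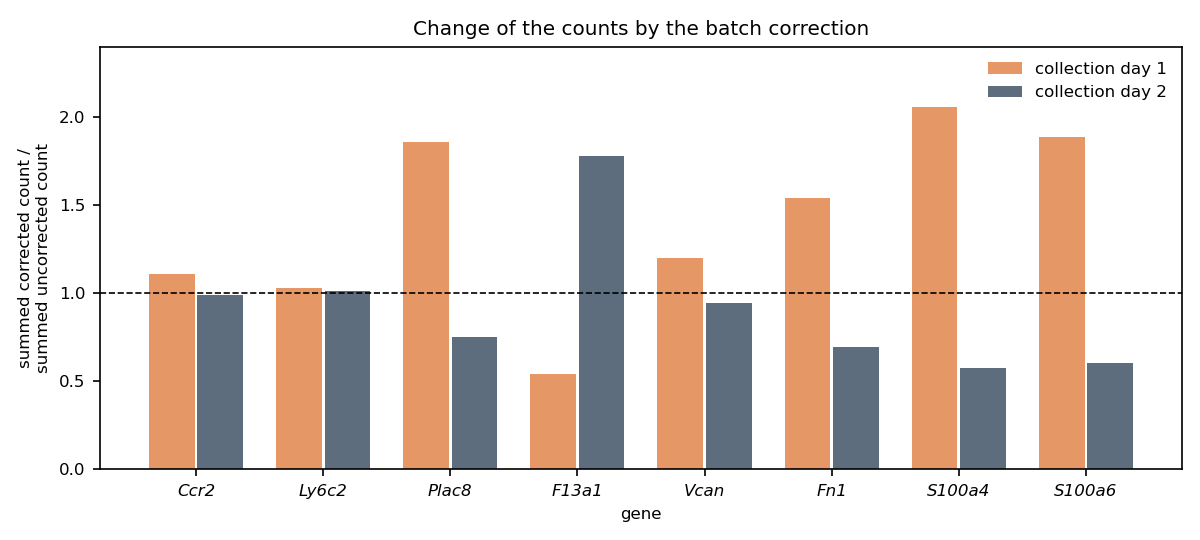
Ratio of the summed corrected count to the summed uncorrected count for 8 genes, as bars from 0, separately for the libraries of collection day 1 and collection day 2. S100a4, S100a6 and Plac8 were scaled up on collection day 1 and down on collection day 2, F13a1 the other way, and Ccr2 and Ly6c2 lie near the dashed line at 1.

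The authors' correction for collection day moved the summed counts of several of these genes up on 1 collection day and down on the other. Corrected over uncorrected counts were 2.06 for S100a4, 1.89 for S100a6, 1.86 for Plac8 and 1.54 for Fn1 on collection day 1. On collection day 2 the same ratios were 0.575, 0.606, 0.753 and 0.694. F13a1 had 0.54 and 1.78, whereas Ccr2 (1.11 and 0.991) and Ly6c2 (1.03 and 1.01) were little altered, and the median of 12259 genes was 0.949 and 1.07. Rises and falls cancel in that median, so it does not show how far a typical gene was moved. Each collection day was also fitted alone. These fits used groups of age and day with 1 added term for sex, not the 18 groups of age, sex and day. On collection day 1 and collection day 2 in turn, the day 12 log2 fold change of Fn1 was 8.17 and 3.75 at 3 months and 2.39 and 3.69 at 18 months. F13a1 had -6.02 and -4.62 at 3 months and -8.47 and -5.94 at 9 months, and S100a6 had 3.68 and 2.49 at 3 months but 0.98 and 2.80 at 9 months. Ly6c2 at 3 months had 3.93 and 2.07, and Ccr2 had 4.26 and 0.29. Plac8 at 18 months had -0.02 on collection day 1 and 4.84 on collection day 2, and its difference between 18 and 3 months at day 12 was -0.35 and 5.97, so these did not hold within collection day 1. At day 28 against day 12, Fn1 had -4.36 and -2.72 at 3 months and -4.74 and -7.03 at 9 months, and Plac8 at 18 months had -2.78 and -5.91. F13a1 at 18 months had -6.72 and -3.80 at day 28 against naive, and the day 12 difference of Fn1 between 9 and 3 months was 0.98 and 4.20.

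Markers of other cells moved in the same libraries. Of 8 T cell markers 7 were in the tables, and their summed level had a median of 1.29 CPM in naive eyes (0 to 161), 122 CPM at day 12 (1.6 to 347) and 71.3 CPM at day 28 (17.6 to 170.1). At day 12, 6, 6 and 4 of these 7 rose at 3, 9 and 18 months, Cd3d and Cd3e of the T cell receptor complex among them at all 3 ages. Over the 62 libraries the T cell sum had a Spearman's rho of 0.86 with S100a6, 0.75 with Ly6c2, 0.69 with Fn1 and 0.61 with S100a4, but 0.39 with Ccr2, 0.33 with Plac8 and -0.38 with F13a1. In the uncorrected counts these were 0.84, 0.74, 0.68, 0.60, 0.38, 0.38 and -0.38. Within the 22 libraries of day 12, rho with the T cell sum was 0.88 for S100a6, 0.84 for Ly6c2, 0.73 for S100a4 and 0.68 for Plac8. It was 0.55 for Ccr2, 0.46 for Fn1 and -0.06 for F13a1. The points share the library, its depth and its sorted cells. The part of T cell RNA in the rise of these genes was not tested, and in pooled cells, more cells of a type and more RNA per cell cannot be told apart. The library with the highest T cell sum, 18-month-old male D12 replicate 3 at 347 CPM, held 133 CPM of Ly6c2 and 52.7 CPM of S100a6. The naive retina with the highest T cell sum, 18-month-old male replicate 2 at 161 CPM, also had the highest naive S100a6 (47 CPM) and Ly6c2 (25.8 CPM), with Fn1 at 0.

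**Figure D4:**
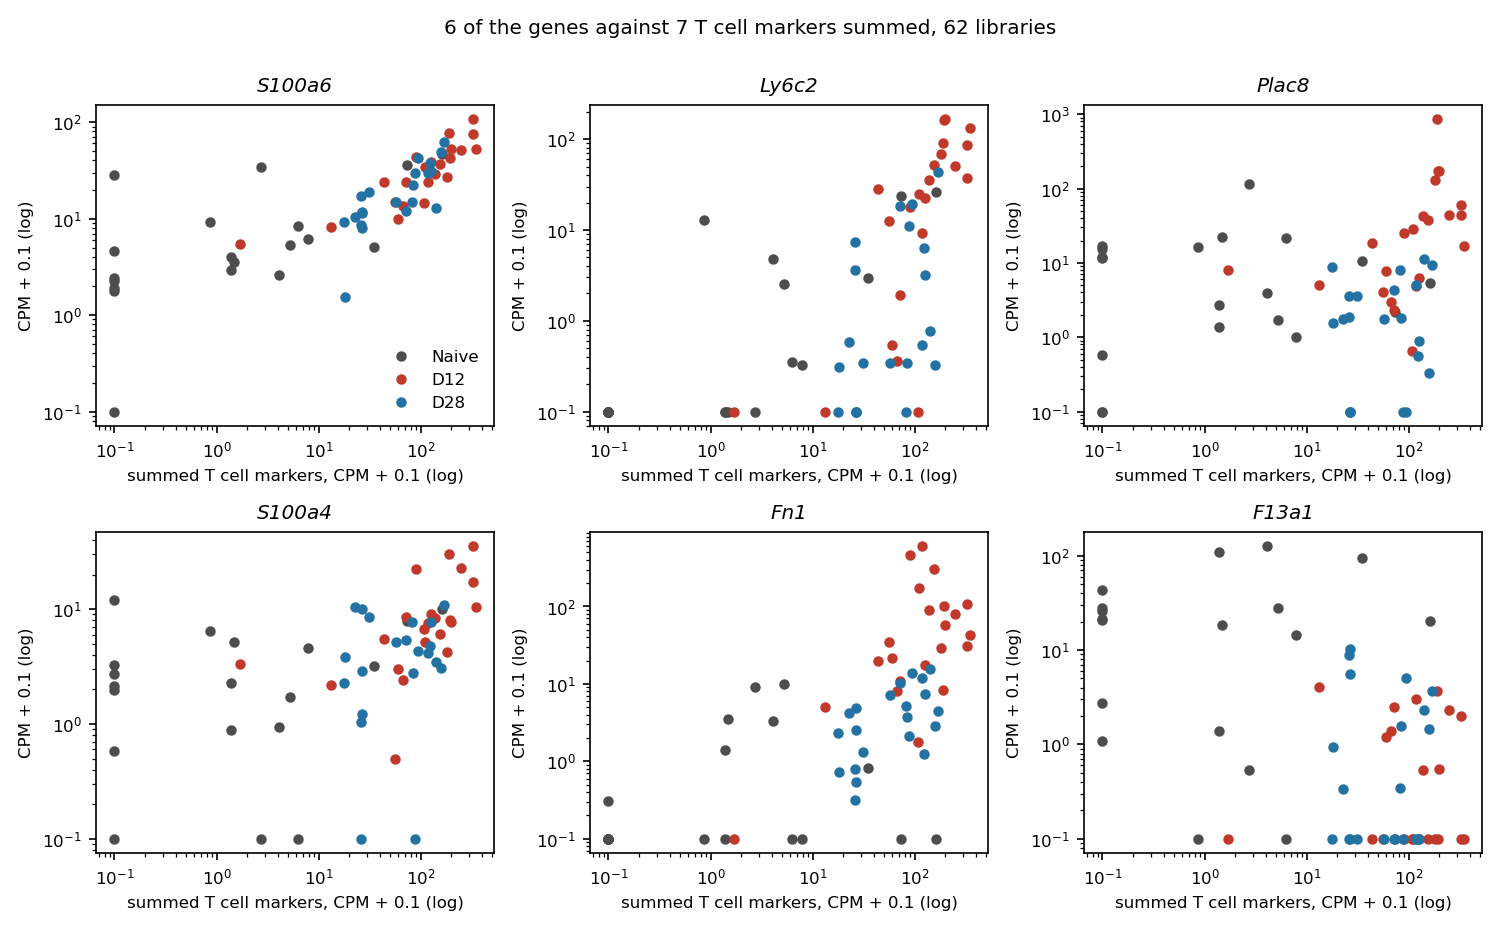
Level of 6 of the genes against the summed level of 7 T cell markers in the 62 libraries, both as CPM plus 0.1 on log axes, with grey for naive eyes, red for day 12 and blue for day 28. S100a6 climbs with the T cell sum through all 3 days (rho 0.86), Ly6c2 less tightly (rho 0.75), and F13a1 lies high mostly where the T cell sum is near 0.

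The fall of F13a1 went with a fall of some, but not all, macrophage genes of vessels and tissue borders. Of 8 border macrophage markers none rose and 4, 2 and 3 fell at day 12 at 3, 9 and 18 months. Ms4a7 had log2 fold changes of 0.93, 0.14 and 0.61 at these ages, and Folr2 had -0.50, -0.73 and 0.05. Neither passed at any age. Pf4 fell at all 3 ages, by 5.46, 6.60 and 4.34 on the log2 scale, from a median of 102 CPM in naive eyes to 1.89 CPM at day 12. Mrc1, a mannose receptor, fell by 4.30 at 3 months and 3.37 at 18 months, and the scavenger receptor gene Cd163 fell by 8.18 at 3 months and fell by 6.91 at 9 months. The summed level of the 8 markers ran from 73 to 769 CPM in naive eyes (median 386), from 60.7 to 449 CPM at day 12 (234) and from 63.2 to 444 CPM at day 28 (282), with Cd209f at 0 in all libraries of day 12. Pf4, Mrc1 and Cd163 fell far more than this sum, so at day 12 the sum comes mostly from other markers of the list. The Spearman's rho of the border macrophage sum with F13a1 was 0.38 over the 62 libraries (0.35 uncorrected). That of the microglia sum with F13a1 was 0.56. These rho values do not show how F13a1 goes with the border markers that fell. The part of border macrophage RNA in the naive F13a1 level was not tested.

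Among microglia markers 4 of 10 fell at day 12 at each age and none rose, Siglech, Gpr34 and the purinergic receptor gene P2ry12 at all 3 ages. P2ry12 fell by 2.41, 2.78 and 1.94 on the log2 scale. The microglia sum had a rho of -0.81 with Fn1 over the 62 libraries and -0.66 in the uncorrected counts. No marker of neutrophils (3 of 9 tested), dendritic cells (8 of 8), B cells (3 of 4), endothelium (3 of 5) or fibroblasts and pericytes (1 of 6) passed at day 12, and Ly6g was at 0 in all naive and day 12 libraries. None of 6 photoreceptor markers passed, and their sum had medians of 1864, 801 and 1472 CPM in naive eyes, at day 12 and at day 28. Of 4 tested Muller glia and astrocyte markers Slc1a3, a glutamate transporter gene, rose at 3 months (log2 fold change 1.38, adjusted p = 0.0451, edgeR).

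**Figure D5:**
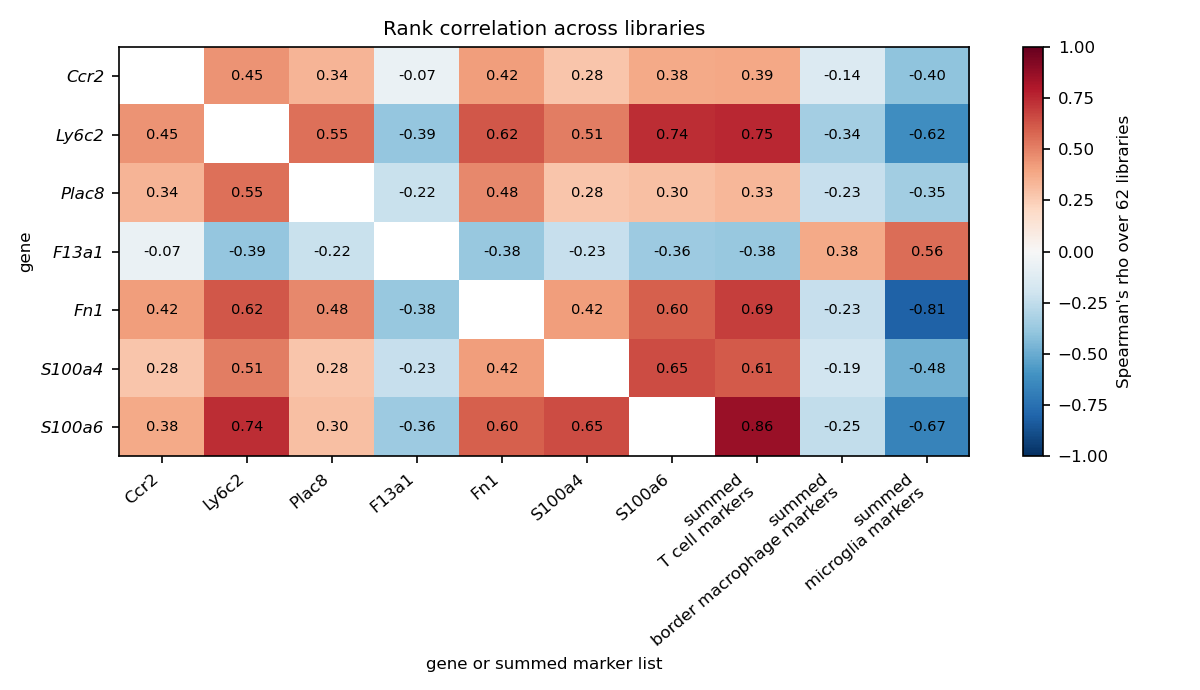
Spearman's rho over the 62 libraries between 7 of the genes, and between them and the summed T cell, border macrophage and microglia markers, on a colour scale from -1 (blue) to 1 (red). F13a1 is negative with every other gene of the 7 and positive with the border macrophage and microglia sums, and Ccr2 has no rho above 0.45.

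Among themselves the genes formed no single group. Over the 62 libraries rho was highest between Ly6c2 and S100a6 (0.74), S100a4 and S100a6 (0.65) and Ly6c2 and Fn1 (0.62), and F13a1 had negative values with the other 6 genes in the grid, from -0.39 to -0.07. Within day 12 alone, Ly6c2 and Plac8 had a rho of 0.85 over 22 libraries, S100a4 and S100a6 0.86, and Ccr2 and S100a4 0.82. The genes most like Ccr2 over the 62 libraries, by rho of log2 CPM, were Ddx58 (0.67, the RNA sensor RIG-I), Met (0.64), Herc6 (0.63), Pik3ap1 (0.62) and Arid5a (0.61). Ly6c2 ranked 323 in that order, Fn1 488 and S100a6 750. These values are descriptions over libraries that differ in day, and no p is given.

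Other genes of monocytes and macrophages changed in part. Of 11 tested classical monocyte genes outside the 9, 1, 1 and 2 rose at day 12 at 3, 9 and 18 months and 1, 0 and 0 fell. Fpr2, a formyl peptide receptor gene, rose at 3 and 18 months (log2 fold changes 6.02 and 6.75), Ms4a4c rose at 9 and 18 months (2.65 and 3.22), and the chemokine receptor gene Ccr1 fell at 3 months by 2.85. Of 6 tested non-classical monocyte genes 2 rose at each age and none fell. Itgal, the integrin alpha L gene that T cells also express, rose at all ages (8.12, 7.54 and 3.65), Pglyrp1 at 3 and 18 months and Spn at 9 months. Of 8 genes of infiltrating macrophages 3, 3 and 2 rose and 1 fell at each age: Cybb, an NADPH oxidase subunit gene, rose at all ages (2.79, 2.93 and 3.07), Cd44 at 3 and 9 months (3.10 and 3.19), and Lsp1 fell at all ages. Of 12 tested genes of a list of S100 proteins, annexins and genes often expressed with them, 1 rose at each age. This was Vim, the gene of the filament protein vimentin and neither an S100 nor an annexin gene, at 3 and 18 months, and Anxa2, an annexin gene, at 9 months. Of 10 matrix genes and matrix receptor genes 1, 3 and 1 rose and 1 fell at each age, with the integrin beta chain gene Itgb3 falling at all ages.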

How the data were processed

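RNA-seq libraries from 600 sorted cells per retina were made by the authors with SMART-Seq v4 and Nextera XT chemistry and read as single-end reads. Per the labels and the study's methods, the authors ran bcl2fastq 2.20 and STAR 2.7.8a on mm10, counted reads per gene with featureCounts (strand setting not given in the sources used here), and corrected the counts for collection day with ComBat_seq in R 4.2.2. The deposited files hold these whole-number counts, uncorrected for 64 libraries and corrected for 63. Reads carry no molecular identifiers, so intervals and floors cover counting error only.

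The corrected counts of 62 libraries were fitted with edgeR 4.0.16 in R 4.3.3 (quasi-likelihood, TMM, edgeR's low-count filter, which kept 13584 genes, 18 groups, no batch term). Day comparisons were tested against a 2-fold change at an adjusted p of 0.05, age and sex comparisons at 0.1, both Benjamini-Hochberg adjusted over all genes tested. The method was tested on simulated data. Correlations used scipy 1.17.1. Alternatives were DESeq2 1.42.0, DESeq2 size factors, no filter, uncorrected counts, other library sets, each age alone, each collection day, a replicate block and each library left out. Replicate numbers do not pair libraries: deviations of 464 same-numbered pairs correlated at -0.0114 on average, other pairs at 0.00422. Gene positions are from GENCODE on mm10. The genes named outside the 9 are, per list, up to 3 with the smallest p at day 12, all CCR2 ligands, and the 5 genes most like Ccr2. Ly6g, Cd209f and Cd3d were also read as defining markers. Ms4a7 and Folr2 were added outside this rule, as border macrophage markers that passed at no age. The members and lists were chosen with earlier results of these data known.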

Additional observations from a re-analysis of the deposited data

Results flagged for a closer look

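Of 73 combinations of a gene, an age and a day, 21 held a library far from the others of its group; chance marks about 1 in 20. Zeros in most libraries of a group make such gaps easy for the genes with few counts. At the top of their groups stood, for Plac8, 3-month-old male D12 replicate 2 (173 CPM, next 44.5), 18-month-old female D12 replicate 4 (857 CPM, next 174), 18-month-old female naive replicate 1 (115 CPM, next 22.5) and 9-month-old female D28 replicate 3 (9.39 CPM, next 3.54). Ly6c2 did so in 3-month-old male D12 replicate 2 (162 CPM, next 51) and 18-month-old male D28 replicate 2 (18.2 CPM, next 3.13). Fn1 stood apart in 3-month-old female naive replicate 4 (3.17 CPM, next 1.29) and 9-month-old male D28 replicate 2 (13.8 CPM, next 4.32). Ccr2 stood apart in 3-month-old male naive replicate 2 (10.3 CPM, next 4.34).

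S100a6 stood apart in 3-month-old male D12 replicate 1 (107 CPM, next 51) and, with S100a4, in 9-month-old female naive replicate 1 (28.4 CPM of S100a6 and 11.8 CPM of S100a4, next 8.23 and 3.19). In that naive female, 12 other classical monocyte genes summed to 18794 CPM, the highest of the naive libraries. The same library held Ly6c2, Plac8, Fn1, Vcan and Chil3 at 0 CPM and Ccr2 at 0.923 CPM. The part of monocyte RNA in its S100a6 and S100a4 was not tested. S100a4 also did so in 9-month-old female D12 replicate 3 (22.5 CPM, next 8.28). F13a1 reached 2.95 CPM in 9-month-old female D12 replicate 2 and 2.2 CPM in 18-month-old male D28 replicate 4. Vcan reached 6.04 CPM in 3-month-old female D12 replicate 3, 3.87 CPM in 3-month-old male D28 replicate 2, 2.49 CPM in 9-month-old female naive replicate 3, 3.82 CPM in 9-month-old male D28 replicate 2 and 7.84 CPM in 18-month-old female naive replicate 1. Chil3 reached 1.73 CPM in 9-month-old female D12 replicate 1, with the other libraries of the group at 0.

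The libraries left out of the comparisons also held these genes. The library labelled 18-month-old female D28 replicate 1 had 117 CPM of Fn1 and 50.7 CPM of Ly6c2 in the corrected table, above the highest naive values of that age (9.79 and 25.8 CPM). The library labelled 9-month-old male D28 replicate 1 had 15.1 CPM of Ly6c2, 2.25 CPM of Fn1 and 38.6 CPM of S100a6 in the uncorrected table, where the highest naive values of that age were 1.43, 0.206 and 14 CPM. Both are libraries whose sex-linked genes go against the label.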

How the results depend on the processing

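For single genes in single comparisons, 434 values under other settings were compared with the reported ones: 352 kept direction and call, 54 lost the call, 26 gained one and 2 turned direction, both of Plac8 on collection day 1 (-0.02 for 18-month-old day 12 against naive and -0.35 for 18 against 3 months at day 12). Where a call changed, the cause was not tested. A fit of a single collection day uses fewer libraries and also a different model, with 1 added term for sex. Counts of the 9 genes past the test follow, in the order 3, 9 and 18 months. Apart from the reported test and part of the DESeq2 comparisons, the share of all genes past the test is not given for these settings. A setting that calls more of the 9 genes may also call more genes of any kind. These counts therefore show only how the calls move with the setting.

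At day 12 against naive (4, 4 and 1), DESeq2 gave 2 (Fn1, S100a6), 3 and 0, no filter 5, 4 and 4, the plain quasi-likelihood test 5, 4 and 4, a fit per age 5, 4 and 0, collection day 1 alone 1, 2 and 0, and collection day 2 alone 0, 2 and 2. At day 28 against naive (0, 0 and 1), DESeq2 gave 0, 1 and 0, no filter 2, 5 and 3, the plain test 0, 3 and 1, the 64 uncorrected libraries 0, 1 and 1, a fit per age 1, 0 and 0, and the F13a1 call at 18 months went to 0 in the uncorrected counts with or without collection day and on either collection day alone. At day 28 against day 12 (1, 1 and 1), DESeq2 gave 0, 1 and 0, no filter 3, 2 and 2, the plain test 3, 2 and 2, uncorrected counts 0, 1 and 0 without collection day and 0, 1 and 1 with it, 63 and 64 libraries 0, 1 and 0 each, a fit per age 2, 1 and 0, collection day 1 alone 0, 0 and 0, and collection day 2 alone 0, 1 and 2. With the library of 2 day labels at day 12, the 3-month count of that comparison was 0.

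For age, DESeq2 gave 1 (Ly6c2) for naive 9 against 3 months and 1 (S100a6) for naive 18 against 3 months, where the reported counts are 0, and 0 for day 12 at 9 against 3 months, where it is 1. No filter gave 1 and 4 in naive eyes, 2 for day 12 at 18 against 3 months, 1 and 3 at day 28, and 3, 2 and 2 for the sex difference. The Plac8 call at day 12 for 18 against 3 months went to 0 in uncorrected counts with or without collection day, in the 64 libraries and on collection day 1, and the count was 3 on collection day 2; the Fn1 call for 9 against 3 months went to 0 on collection day 1. For the sex difference, DESeq2 gave 1 (Ly6c2) at 9 months and a fit per age 1 (Plac8) at 3 months. DESeq2 size factors changed no count, nor did leaving out 9-month-old male D12 replicate 2 and 18-month-old male D28 replicate 4 together. The replicate block, where same numbers do not pair libraries, gave 3, 3 and 1 at day 12, 0, 0 and 0 at day 28 against naive, 0, 1 and 1 at day 28 against day 12, and 0 for Fn1 at 9 against 3 months; other counts did not change.

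Leaving out each library in turn, 347 of 416 single-gene values kept direction and call, 62 lost the call and 7 gained one, and the counts ranged from 3 to 4, 2 to 4 and 0 to 2 at day 12, from 0 to 0, 0 to 1 and 0 to 1 at day 28 against naive, and from 0 to 1, 1 to 1 and 0 to 2 at day 28 against day 12. They ranged from 0 to 1 for both age comparisons at day 12 and for naive 18 against 3 months, and were 0 to 0 in the other age and sex comparisons. Depth limits Chil3, Vcan and Ccr2 most.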
